A study of Mus musculus with 6 samples.

Results

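The genes described are the zinc finger genes among those listed as changed between a pair of groups of noise-exposed mouse cochleae. They are the 40 genes whose symbols begin with Zfp and a digit, Zkscan, Zscan, Zbtb, Zik1 or Znf, taken from the deposited list of down-regulated genes (32 members) or from that of up-regulated genes (8 members). Both lists together hold 3878 genes, of which 3716 carry a symbol, and the deposited table holds 41096 genes. No listed symbol began with Zkscan. The members were therefore selected on the difference in level between the same groups. The files hold 6 animals, whereas the study's methods describe more animals in each group. The direction and size of each member's difference are given as a description. The p values below come from the fit across all genes, and since the lists chose the members for the same difference they are no independent evidence about them. The GENCODE annotation of GRCm38 holds 467 protein-coding genes whose symbols follow the same rule, so the members are 8.57% of them. Zinc finger genes outside the lists carry no symbol in the deposited files and were not analysed here, so the values of genes just outside the lists cannot be given. The smallest differences among the 40 members were those of Zfp106 (log2 fold change of -0.19) and Zfp740 (0.18).

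Left cochleae of 6 animals were sequenced. Specimens 6, 8 and 10 are the sound trauma group, and specimens 13, 18 and 20 are the MSC treated group, and values are given in that order. All were female mice aged 4 weeks, of the strain C57BL/6 (C56Bl/6 in the labels), and all were exposed to noise at 16 kHz in the left ear. The MSC treated animals then received mesenchymal stromal cells (MSCs) of human origin, grown from umbilical cord Wharton's jelly and injected through the posterior semicircular canal. The labels describe the other group as exposed to noise alone, whereas the study's methods describe an injection of artificial perilymph. According to the labels RNA was taken 2 days after treatment, and the study's methods give a longer interval. There was no group without noise, so the comparison shows a difference between treated and untreated ears after noise and not an effect of the noise.

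Zinc finger proteins of the C2H2 type hold a zinc ion between a pair of cysteines and a pair of histidines, and a row of such fingers can read a stretch of DNA. The largest subfamily in mammals carries a KRAB box, which recruits the corepressor Trim28 and with it the machinery that writes repressive chromatin, and many of its members bind transposable elements. These genes lie in clusters that grew by tandem duplication. Members with a BTB domain form dimers and bind corepressors, and those with a SCAN domain pair with one another. Others are single genes with roles in development, and some proteins named Zfp bind RNA or other proteins and do not act as classical transcription factors.

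A finger is written in the coding strand as 2 cysteine codons, a stretch of 12 further codons and 2 histidine codons. The units below are shown because they place the metal-binding residues of a member listed as down-regulated (Zfp791), of a member listed as up-regulated (Zfp945) and of a member with 3 fingers and no KRAB box (Zfp385c), with the cysteine and histidine codons matched by the search in capitals. In the last, a further histidine codon in lower case lies between the marked ones. The first lies at chr8:85110730-85110813 on the minus strand of GRCm38 (residues 141 to 168), and the second at chr17:22852207-22852290 on the minus strand (residues 233 to 260). The third, residues 79 to 101, spans an exon junction. All are exonic and coding in the GENCODE annotation.
Zfp791: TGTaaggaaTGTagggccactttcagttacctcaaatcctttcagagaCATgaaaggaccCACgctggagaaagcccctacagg
Zfp945: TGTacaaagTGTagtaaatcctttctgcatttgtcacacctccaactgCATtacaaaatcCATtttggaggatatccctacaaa
Zfp385c: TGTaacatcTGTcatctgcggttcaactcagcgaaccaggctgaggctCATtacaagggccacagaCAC

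Searched in this way, with 2 to 4 residues between the cysteines and 3 to 5 between the histidines, the members held between 0 and 27 fingers. The median was 8.5 fingers for the members and 9 for the 467 genes that follow the naming rule. A KRAB box was found in 12 members (30%) and in 47.5% of the genes that follow the rule. Zbtb18 and Zbtb46 are BTB genes and Zscan18 is a SCAN gene. No finger was matched in Zfp474, Zfp365, Zfp503 and Znfx1, which says only that this spacing does not occur in their sequence. The other 21 members had 1 to 27 fingers and no KRAB box matched. The most fingers, 27, were counted in Zfp423 and its paralogue Zfp521.

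The deposited value of a gene is its read count multiplied by 1 factor per library, called scaled count here. The libraries held between 9170390 and 11030863 reads on genes and between 20947 and 21632 genes with a read, and all 40 members had reads in every library. The lowest member value was 3 reads, for Zfp474 in specimen 13. The log2 fold changes below come from limma on log2(scaled count + 1), MSC treated over sound trauma, fitted to 15970 genes. They understate the difference of genes with few reads. In limma no gene of 15970 (0%) passed an adjusted p of 0.05, and 376 genes (2.35%) passed an unadjusted p of 0.05. No gene passed the adjusted threshold in edgeR (525 genes, 3.29%, at the unadjusted p) or in DESeq2 (799 genes, 5%, at the unadjusted p). The members had adjusted p values between 0.954 and 0.975 in limma. Nothing in the labels says that the specimens differ other than by animal and treatment. In RNA of a whole cochlea, fewer cells of a type and less RNA per cell cannot be told apart.

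The libraries differed in the levels of marker genes of other tissues. A marker is named here only if the deposited lists hold it, so the named markers were chosen by the same contrast. Of the other tested genes of the down-regulated list, 68.1% were highest in specimen 8 and 30% in specimen 6. Peaks of named markers in these specimens are therefore no independent finding, and the unnamed markers were not seen. The 11 named skeletal muscle markers of a list of 12 summed to scaled counts of 940274 in specimen 6, 38195 in specimen 8 and 221542 in specimen 10, and to between 83280 and 536458 in the MSC treated animals. All 11 were highest in specimen 6. The 8 named neuron markers of 12 summed to 8943, 28889 and 5174 in specimens 6, 8 and 10 and to between 5656 and 8114 in the MSC treated animals, and all 8 were highest in specimen 8. None of these 19 markers was at 0 in any library. The 9 anterior pituitary markers were all highest in specimen 6, with a sum of 297435 there and between 1256 and 22358 in the other libraries. The 5 named choroid plexus markers of 8 summed to 8145 and 5508 in specimens 6 and 8 and to between 298 and 409 in the other 4 libraries. The named hair cell markers, 3 of 12 (Otof, Pou4f3 and Lhfpl5), were found in every library and summed to between 272 and 674. The 8 named myelin markers of 12 summed to between 10189 and 33673, with 7 of the 8 highest in specimen 8, and the 2 named immune markers of 12 to between 1044 and 1982.

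The 32 members listed as down-regulated all had a lower fitted level in MSC treated animals, beside 49.8% of all genes tested, and the 8 listed as up-regulated all had a higher one, beside 50.2%. The lists were made from the same contrast, so these counts are no finding. The median log2 fold change was -0.41 for the 32 members and -0.49 for the other 2510 genes tested from the same list. For the 8 up-regulated members it was 0.36, and for the other 1119 genes tested from that list also 0.36. The ratio of the group means ran from 0.271 (Zfp474) to 0.855 (Zfp335) in the first group and from 1.13 (Zfp740) to 1.50 (Zfp712) in the second. The 3 sound trauma values lay above all 3 MSC treated values for 6 members (Zfp474, Zfp791, Zfp239, Zik1, Zfp383 and Zfp423), beside 2.92% of all genes tested. They lay below them for 3 members (Zfp943, Zfp804a and Zfp945), beside 4.25% of all genes. Both directions together make 9 members, beside 7.16% of all genes. An unadjusted p under 0.05 in limma was found for 5 members, all lower (Zfp474, Zfp791, Zfp239, Zfp383 and Zfp423), beside 0.67% of all genes tested that were lower at that p. For higher members the count was 0, beside 1.68% of all genes. Nothing is read from these counts, since the lists used the same contrast.

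**Figure D1:**
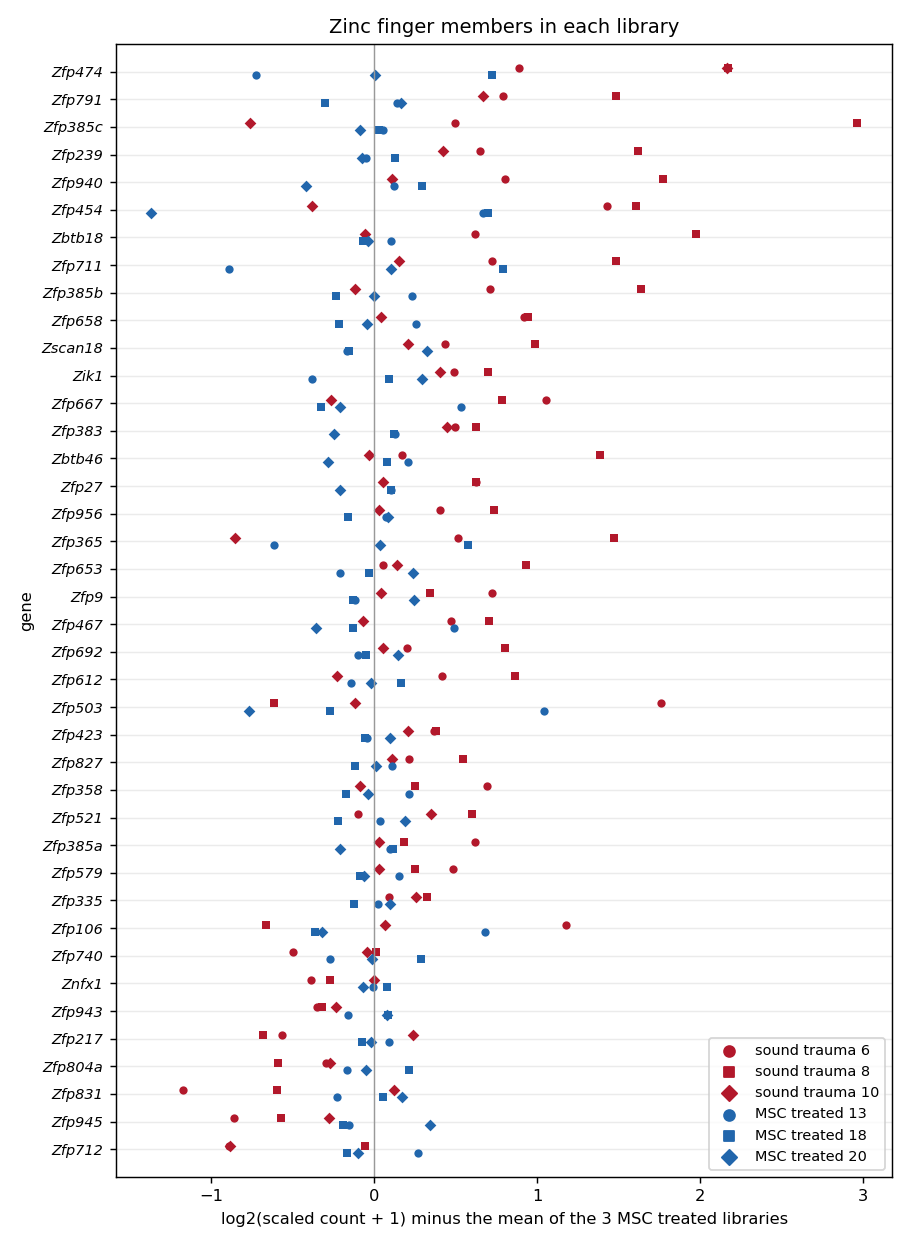
Level of each of the 40 members in each library, as log2(scaled count + 1) minus the mean of the 3 MSC treated libraries. Each symbol is 1 animal (sound trauma in red, MSC treated in blue), with genes in order of fold change. Of the 32 members listed as down-regulated, 24 were highest in specimen 8 (red squares) and 8 in specimen 6 (red circles), while specimen 10 (red diamonds) lay near the MSC treated values for many.

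The sound trauma animals did not share the higher level of the 32 members equally. The highest of the 6 values was in specimen 8 for 24 members (75.0%) and in specimen 6 for the other 8. It was in specimen 8 for 68.1% of the other genes of the same list and for 28.2% of all genes tested. Relative to the MSC treated mean, the median member was 0.57 higher in specimen 6, 0.79 higher in specimen 8 and 0.05 higher in specimen 10 on the log2 scale. In specimen 10 the level was under the highest MSC treated value for 24 of the 32 members and under the arithmetic mean of the MSC treated scaled counts for 13. The median SD of the log2 values was 0.46 among sound trauma and 0.22 among MSC treated animals. It was 0.78 and 0.30 for the other genes of the same list, and 0.33 and 0.19 over all genes tested. The up-regulated members were lowest in specimen 6 for 6 genes, the other 2 being lowest in specimen 8. Of the other genes of that list, 61.2% were lowest in specimen 6 and 33.0% in specimen 8, beside 30.1% and 21.2% of all genes tested. For the 8 members the median level in specimen 10 was 0.14 under the MSC treated mean, against 0.53 under it in specimen 6 and 0.44 in specimen 8.

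Of the 12 members with a KRAB box, 9 came from the list of down-regulated genes and 3 from the other list. Here and below the 3 sound trauma values are set against the 3 MSC treated values, in the order of specimens given above. Zfp791 (MGP_C57BL6NJ_G0034392), a KRAB gene with 15 fingers and the first unit shown above, had scaled counts of 18.5, 30.6 and 17.0 after sound trauma alone. With MSC treatment it had 11.4, 8.17 and 11.6. Every MSC treated value was under every sound trauma value, with 8 to 32 reads behind each. The means were 22.0 ± 7.45 and 10.4 ± 1.95 (SD, n = 3 each), a log2 fold change of -0.98 (SE 0.36).

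Zfp383, on chromosome 7 with 11 fingers, had scaled counts of 99.7, 109 and 96.5 against 76.9, 76.6 and 59.2. The groups were apart and each was narrow, with means of 102 ± 6.50 and 70.9 ± 10.1 (SD, n = 3 each) and a log2 fold change of -0.52 (SE 0.20). Its nearest protein-coding neighbour among the members, Zfp27 (21 fingers and no KRAB box matched), had a log2 fold change of -0.43 (SE 0.22). Zfp940, separated from Zfp27 by 1 protein-coding gene, had 55.6, 110 and 33.9 against 34.3, 38.8 and 23.3. There the value of specimen 10 fell among the MSC treated ones, and the log2 fold change was -0.90 (SE 0.46) over all libraries and -0.46 without specimen 8.

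Zik1, whose protein was named for its binding to the RNA-binding protein hnRNP K, had 31.3, 36.3 and 29.5 against 16.6, 23.5 and 27.2. The reads were 27, 38 and 33 against 16, 23 and 28, so the groups were apart only after scaling and overlapped when scaled by total counts. The log2 fold change was -0.53 (SE 0.29). Zfp454 had 46.4, 52.6 and 12.5 against 27.0, 27.6 and 5.82. Specimens 10 and 20 both lay far below the other animals of their group for this gene, and the log2 fold change of -0.88 (SE 0.78) was -0.20 without specimen 20. Of the other 4 KRAB genes listed as down-regulated, Zfp658 had a log2 fold change of -0.64 (SE 0.32), Zfp667 of -0.53 (SE 0.43), Zfp9 of -0.37 (SE 0.23) and Zfp612 of -0.35 (SE 0.30), and the groups overlapped for each. For Zfp612 it was -0.09 without specimen 8 and -0.64 without specimen 10.

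The 3 KRAB genes listed as up-regulated were Zfp945, Zfp943 and Zfp712. Zfp945 (MGP_C57BL6NJ_G0023659), with 18 fingers and the second unit shown above, had scaled counts of 74.2, 90.8 and 112 against 122, 118 and 172. Its groups were apart by a small margin, with means of 92.2 ± 18.8 and 137 ± 29.9 (SD, n = 3 each) and a log2 fold change of 0.57 (SE 0.24). Zfp943, which lies on chromosome 17 with 9 protein-coding genes between it and Zfp945, had 145, 148 and 157 against 165, 196 and 195. This was the tightest of the sound trauma groups among the 3 genes, and the log2 fold change was 0.30 (SE 0.15). Zfp712, with 20 fingers, had 23.2, 42.1 and 23.2 against 53.0, 38.8 and 40.8. Specimen 8 lay inside the MSC treated range, and the log2 fold change of 0.61 (SE 0.33) was the largest of the 8 genes.

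**Figure D2:**
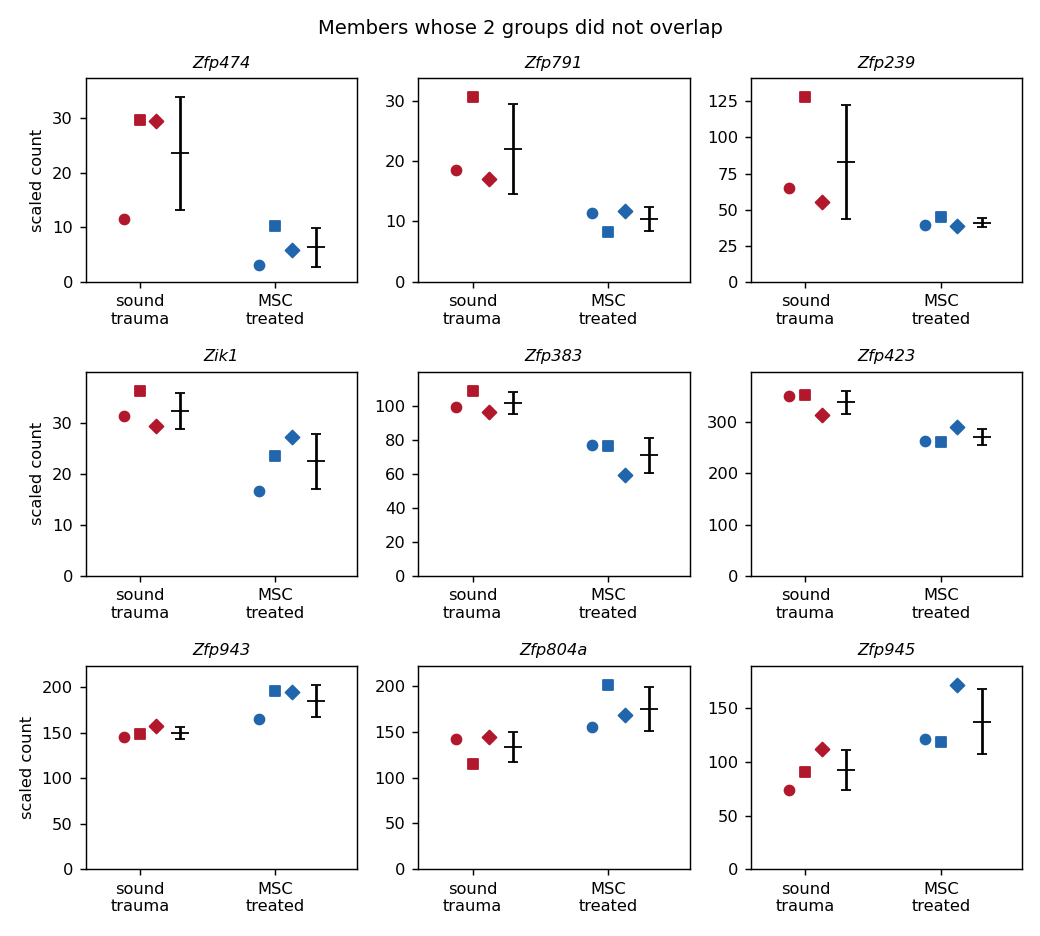
Scaled counts of the 9 members whose groups did not overlap, 1 panel a gene, with each animal as a symbol and the mean and SD of the 3 animals of a group as a bar beside them. Sound trauma values are in red and MSC treated values in blue. In Zfp239 the SD of the sound trauma group comes largely from specimen 8 at 128, while the 3 values of Zfp383 lie between 96.5 and 109.

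Both BTB genes were led by specimen 8. Zbtb18, a repressor needed for the development of cortical neurons, had scaled counts of 891, 2287 and 557 against 623, 555 and 567. Specimen 10 lay with the MSC treated animals, whose SD was 36.7 (n = 3), and the log2 fold change of -0.84 (SE 0.48) was -0.28 without specimen 8. Zbtb46, a gene that marks classical dendritic cells and is also found in endothelium, had 185, 431 and 161 against 190, 174 and 135. Its log2 fold change of -0.51 (SE 0.39) was -0.07 without specimen 8. Zscan18, the SCAN gene, had 68.4, 100 and 58.1 against 44.7, 44.9 and 63.1, and a log2 fold change of -0.54 (SE 0.29) with overlapping groups.

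The 3 members of the Zfp385 family differed in level and in how the animals compared. Zfp385c had scaled counts of 44.04, 249 and 17.9 against 32.2, 31.7 and 29.1. A single sound trauma animal was high, specimen 10 was the lowest of all 6, and the log2 fold change of -0.90 (SE 0.89) turned to 0.13 without specimen 8. Zfp385b had 296, 563 and 166 against 212, 153 and 181, and its log2 fold change of -0.74 (SE 0.43) was -0.30 without specimen 8. Zfp385a, which encodes a partner of p53 that also acts on RNA, was more even, with 2143, 1584 and 1424 against 1491, 1509 and 1208. Its groups overlapped by specimens 10, 13 and 18, and the log2 fold change was -0.28 (SE 0.19).

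**Figure D3:**
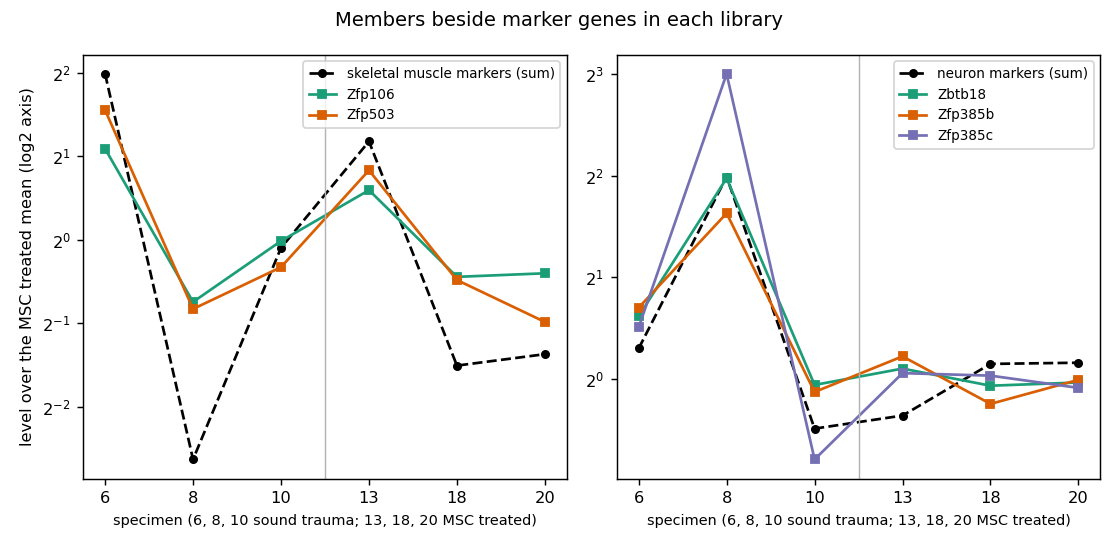
Level of 5 members and of 2 marker sums in each animal, divided by the mean of the MSC treated animals, on a log2 axis. Left, the sum of 11 skeletal muscle markers with Zfp106 and Zfp503, all highest in specimen 6. Right, the sum of 8 neuron markers with Zbtb18, Zfp385b and Zfp385c, all highest in specimen 8. The genes plotted were chosen after their values were seen. Members and markers all come from the list of down-regulated genes.

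The genes led by specimen 8 were high in the animal where the neuron markers summed to 28889 and the myelin markers to 33673, their highest sums, and where the choroid plexus markers were also high at 5508. The part of these tissues in their difference was not tested, and the named markers come from the same lists as the members. Among the 32 members listed as down-regulated, 9 had a log2 fold change that was at least halved, or turned, when specimen 8 was left out. Zfp365, which encodes a protein of neurons that binds Disc1, was the other member whose direction turned. It had 272, 530 and 105 against 124, 284 and 195, and its log2 fold change was -0.38 (SE 0.61) with all animals and 0.17 without specimen 8. Zfp711, an X-linked gene that recruits the demethylase Phf8, had a log2 fold change of -0.79 (SE 0.56), which was -0.34 without specimen 13 and -0.44 without specimen 8, and its level was the lowest per length of all members.

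Of the down-regulated genes with no KRAB box matched, Zfp474, Zfp239 and Zfp423 had groups that did not overlap. Zfp474 (MGP_C57BL6NJ_G0024841) had scaled counts of 11.6, 29.6 and 29.5 against 3.12, 10.2 and 5.82, from 10, 31, 33, 3, 10 and 6 reads. It had the largest fold of the 40 members and the fewest reads, and specimens 6 and 18, at 10 reads each, were apart only by the scaling and overlapped when scaled by total counts. Its means were 23.6 ± 10.4 and 6.38 ± 3.58 (SD, n = 3 each), and the log2 fold change was -1.74 (SE 0.56). Zfp239 had 64.9, 128 and 55.4 against 39.5, 44.9 and 38.8, with a log2 fold change of -0.90 (SE 0.35) that was -0.54 without specimen 8.

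Zfp423, a 27-finger partner of Ebf factors that acts in preadipocytes and in cerebellar precursors, had the smallest fold of the 6 non-overlapping genes with a lower level. Its scaled counts were 351, 354 and 314 against 264, 261 and 290. The means were 339 ± 22.5 and 272 ± 16.0 (SD, n = 3 each), a log2 fold change of -0.32 (SE 0.13), and it lay between -0.37 and -0.29 when any 1 animal was left out. Its paralogue Zfp521 had 386, 629 and 529 against 424, 355 and 472, with overlapping groups and a log2 fold change of -0.28 (SE 0.21), which lay between -0.48 without specimen 6 and -0.12 without specimen 8.

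Other members were highest in specimen 6. Without that animal the log2 fold change of Zfp667 was -0.26, that of Zfp9 -0.19, that of Zfp358 -0.08, that of Zfp385a -0.11 and that of Zfp579 -0.14, each nearer to 0 than with all animals. Zfp106, an RNA-binding protein needed to keep motor neurons and muscle, was the most abundant member by scaled count, with 6334, 1773 and 2942 against 4491, 2185 and 2250. The animals fell in the same order for Zfp106 as for the sum of the skeletal muscle markers, from specimen 6 through 13, 10, 20 and 18 to 8. Its log2 fold change of -0.19 (SE 0.51) turned to 0.30 without specimen 6. Zfp503, a repressor of the striatum and limb also called Nolz1, had 863, 165 and 234 against 524, 210 and 149. It was high in specimens 6 and 13, the pair with the highest muscle sums, and its log2 fold change of -0.34 (SE 0.72) turned to 0.37 without specimen 6 and to 0.04 without specimen 20. The part of muscle tissue in these values was not tested, and the muscle markers come from the same list as Zfp106 and Zfp503.

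**Figure D4:**
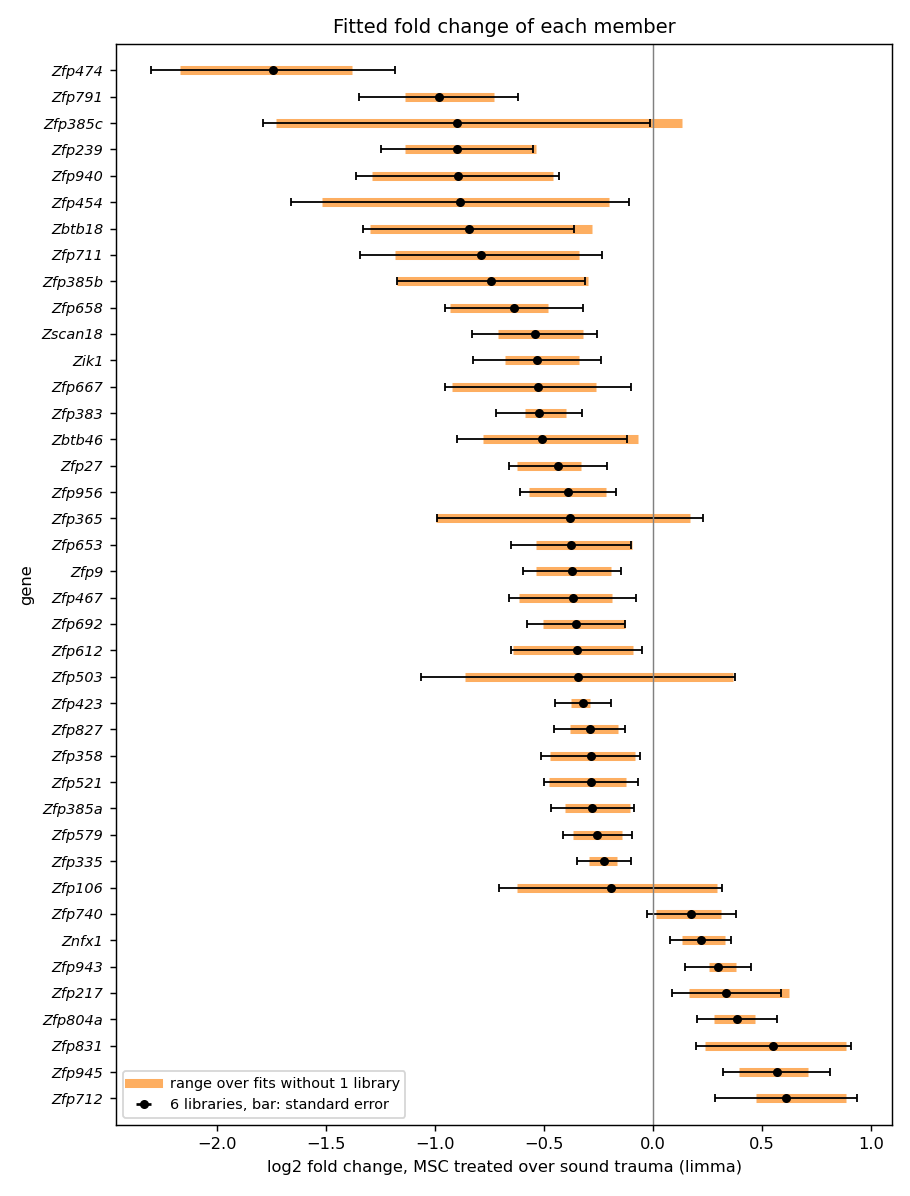
Log2 fold change of each member, MSC treated over sound trauma, from limma on log2(scaled count + 1). Points with black bars give the value and its standard error over 6 libraries, and orange bars the range over the 6 fits that each leave out 1 library. The orange bars of Zfp385c, Zfp365, Zfp503 and Zfp106 cross 0.

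For 29 of the 40 members, leaving out some single library moved the log2 fold change by over 1.5 times, in one direction or the other. The other members listed as down-regulated had modest differences and overlapping groups. Zfp956 had a log2 fold change of -0.39 (SE 0.22), Zfp653 of -0.38 (SE 0.28) and Zfp467 of -0.37 (SE 0.29). Leaving out 1 library brought Zfp956 to -0.21 and Zfp653 to -0.10 (both without specimen 8) and Zfp467 to -0.19 (without specimen 20). Zfp956 and Zfp467 lie on chromosome 6 with 3 protein-coding genes between them. Zfp692, which encodes a factor known to be controlled by the kinase AMPK, had a log2 fold change of -0.35 (SE 0.22), which was -0.13 without specimen 8. Zfp827, whose protein brings a chromatin remodelling complex to telomeres, had a log2 fold change of -0.29 (SE 0.16), Zfp358 of -0.28 (SE 0.23) and Zfp579 of -0.26 (SE 0.16). Zfp335, a subunit of histone methyltransferase complexes that is needed for neural progenitors, had one of -0.22 (SE 0.12).

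Among the up-regulated genes with no KRAB box matched, Zfp804a had groups that did not overlap. Zfp804a, whose human counterpart is a locus of schizophrenia risk, had scaled counts of 141, 115 and 144 against 155, 201 and 168. Between the groups, specimens 10 and 13 were nearest to each other, and the log2 fold change was 0.39 (SE 0.18). Zfp831 had 39.4, 59.3 and 98.3 against 76.9, 94.0 and 102, so that specimen 10 lay among the MSC treated values, and the log2 fold change of 0.55 (SE 0.36) was 0.24 without specimen 6. Zfp217, a member of corepressor complexes and an oncogene in breast cancer, had 466, 430 and 813 against 737, 656 and 681. Specimen 10 was the highest of all 6 for this gene, and the log2 fold change of 0.34 (SE 0.25) was 0.62 without it, 0.17 without specimen 8 and 0.22 without specimen 6.

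Znfx1, an interferon-induced helicase that senses viral RNA, had 1172, 1274 and 1537 against 1529, 1620 and 1463, a log2 fold change of 0.22 (SE 0.14). The immune markers Cd68 and Adgre1 summed to 1059, 1044 and 1982 in specimens 6, 8 and 10. In specimens 13, 18 and 20 they summed to 1705, 1672 and 1823, so they too were low in specimens 6 and 8. Both markers and Znfx1 come from the list of up-regulated genes, so the shared pattern is no independent finding. Of the other genes of that list, 61.2% were lowest in specimen 6 and 33.0% in specimen 8. The other immune markers were not seen, and the part of immune cells in the result was not tested. Zfp740 had 1024, 1456 and 1403 against 1198, 1762 and 1431 and the smallest log2 fold change of the 8 genes, 0.18 (SE 0.20), which was 0.02 without specimen 6 and 0.03 without specimen 18. For both genes specimen 6 was the lowest and specimen 18 the highest of the 6 animals.

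The level of the members per length was compared with the classes of their proteins. Per 1000 bases of exon, the mean scaled count over the 6 libraries ran from 3.94 for Zfp711 and 5.51 for Zfp791 to 319 for Zfp106 and 620 for Zfp385a. The 12 KRAB genes lay between 5.51 and 35.1 with a median of 12.2. The 21 genes with fingers, no KRAB box matched and no BTB or SCAN symbol lay between 3.94 and 620 with a median of 59.1. KRAB genes held 9 to 21 fingers with a median of 13, and the 21 others a median of 7. The median log2 fold change was -0.52 for the KRAB genes, 3 of which were higher, and -0.29 for the 21 others, 4 of which were higher. No test was made of these differences, since the lists chose the genes.

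**Figure D5:**
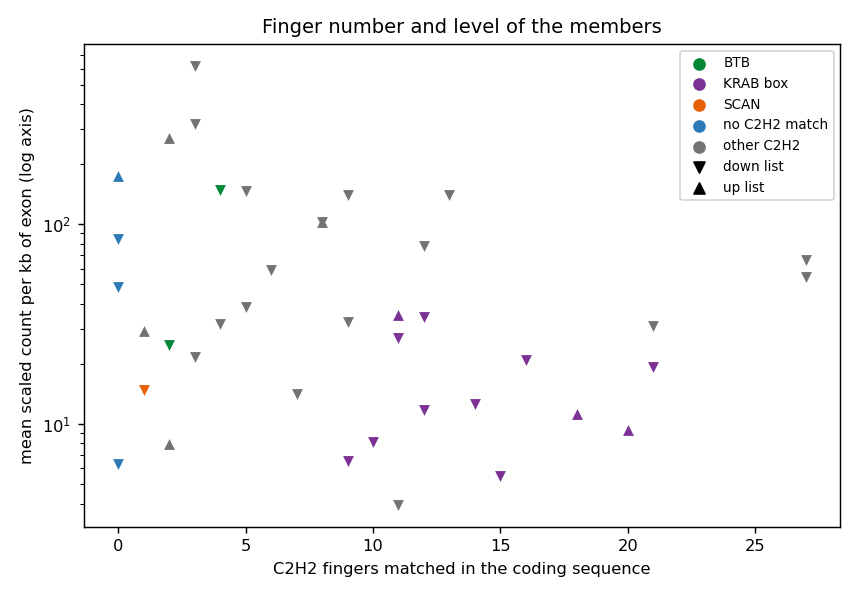
Mean scaled count per kb of exon (log axis) against the number of fingers matched in the coding sequence, 1 triangle a member, colored by class and pointing down or up for the list that holds it. The 12 KRAB genes (purple) had 9 to 21 fingers and lay between 5.51 and 35.1, and the 4 highest genes had 0 to 3 fingers.

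Several members lie near one another in the genome. On chromosome 7, no protein-coding gene separates Zfp383 and Zfp27, 1 separates Zfp940 and Zfp27, and all 3 were listed as down-regulated. On chromosome 6, Zfp239 and Zfp9 have 8 protein-coding genes between them and were both listed as down-regulated. Zfp791 and Zfp423 on chromosome 8 have 17 between them. Zfp385b and Zfp804a on chromosome 2, with 15 between them, were listed in opposite directions. Since 32 of the 40 members were listed as down-regulated, nothing is read from neighbours that share that list. Exons of 12 members overlap those of other annotated genes, for 10 of them on the opposite strand, such as Zfp335 with Pcif1, Zfp740 with Csad and Znfx1 with Zfas1. How reads were assigned to a strand is not given in the sources used here, so part of the counts of these 12 may belong to the partner, and reads of near-identical KRAB genes may have been split between copies.

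Promoter windows, from 250 bases before to 50 after a start of transcription, were found in RefSeq for 34 of the 40 members (54 windows). The windows of Zik1 (chr7:10495332-10495631, minus strand of GRCm38.p6) and Zfp945 (chr17:22867085-22867384, minus strand) are shown because they belong to a non-overlapping KRAB gene of each direction, each with 1 window. Capitals mark the GC box GGGCGG and the CCAAT box, searched on both strands.
Zik1: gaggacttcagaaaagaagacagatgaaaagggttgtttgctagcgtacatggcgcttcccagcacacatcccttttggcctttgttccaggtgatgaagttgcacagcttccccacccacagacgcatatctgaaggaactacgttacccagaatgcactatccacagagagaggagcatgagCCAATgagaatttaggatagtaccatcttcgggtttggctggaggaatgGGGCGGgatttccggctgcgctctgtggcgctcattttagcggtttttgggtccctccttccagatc
Zfp945: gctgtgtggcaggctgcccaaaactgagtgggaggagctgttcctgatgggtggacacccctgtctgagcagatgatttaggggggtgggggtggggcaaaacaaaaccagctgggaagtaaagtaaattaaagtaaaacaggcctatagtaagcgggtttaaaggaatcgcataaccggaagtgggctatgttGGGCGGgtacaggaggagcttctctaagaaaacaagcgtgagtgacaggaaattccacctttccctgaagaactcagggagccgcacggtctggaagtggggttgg

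The GC box GGGCGG occurred in 46.3% of the members' windows and in 35.7% of all 32851 windows, and in 15 of 27 down-regulated and 6 of 7 up-regulated members that have a window. The CCAAT box occurred in 24.1% of the members' windows and in 37.4% of all, in 10 of 27 and 1 of 7 members. The cAMP response element TGACGTCA was found in 3.70% of the members' windows and 1.79% of all, and the E-box CAGCTG in 18.5% and 16.3%. The core motif of 10 bases bound by YY1 was found in 1.85% of the members' windows and 0.852% of all. The median GC content was 55.7% in the members' windows and 52.7% in all windows. A match is a string of letters in the window and was not tested as a site.

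Of a list of 16 partners through which KRAB proteins repress, 1 (Trim28) was named in the deposited lists. The lists hold 3878 of 41096 genes, but only 25369 of all genes had a read. Of the 15970 genes tested, 2510 were non-members from the down-regulated list and 1119 were non-members from the up-regulated list. Nothing is read from the count of partners. Trim28 had scaled counts of 1698, 1903 and 1886 against 1675, 1725 and 1729 and a log2 fold change of -0.10. Specimen 6 lay among the MSC treated animals for this gene.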

How the data were processed

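Animals were grouped by the sample labels into 3 sound trauma and 3 MSC treated animals, and total RNA of each left cochlea was measured. Per the study's methods, the authors trimmed and aligned reads with the AIR software to the C57Bl/6NJ genome from Ensembl. The counting tool, its use of strand and its filters are not given in the sources used here. The authors deposited a signal per gene, in which the reads of each library were scaled by a single TMM factor. Of all values, 100% were whole multiples of 1 step within 0.001, so reads were recovered. The deposited lists also give an FDR, a log2 fold change and mean FPKM values by the authors, whose methods name NOISeq for the statistics. None of these was used, only gene IDs and symbols.

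limma 3.58.1 with a trend was fitted to log2(scaled count + 1) for the 15970 genes that passed filterByExpr (edgeR 4.0.16) on the recovered reads, of 25369 with a read, with Benjamini-Hochberg adjustment over all genes tested. edgeR's quasi-likelihood test, DESeq2 1.42.0, limma-voom, other scalings, filters and pseudocounts (0.1 and 10) and each library left out were alternatives. Members, lists and tests were chosen with earlier results of these data known. Given in every library were the 6 members with the largest lower and the 6 with the largest higher fold change, those with no overlap, an unadjusted p under 0.05, the 4 highest levels and the 4 largest swings without 1 library. Others given so, such as Zbtb18, Zbtb46, Zfp385b, Zfp521 and Zscan18, were chosen after their values were seen. Exact permutation of 3 against 3 animals cannot give a two-sided p under 0.1.

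Genes were matched by symbol to GENCODE M21 (GRCm38) and RefSeq (GRCm38.p6), another build than the authors'. Fingers were counted in translated GENCODE coding sequences, in place of the RefSeq proteins that had been planned. A KRAB box required 6 of 8 fixed positions within the first 150 residues. BTB and SCAN genes were assigned by symbol, and their domains were not searched. On simulated data for this comparison and 15970 genes, limma recovered 100 of 100 genes changed 8-fold and 9 of 100 changed 2-fold. It made 2 false calls there. In the measured data the choroid plexus marker Ttr had a log2 fold change of -4.03 (SE 1.53), which is beyond 8-fold. Its adjusted p in limma was 0.954. The simulated recovery therefore does not show that 8-fold changes are detected in these libraries. Tools were R 4.3.3, Python 3.11.15, pandas 2.3.3, numpy 2.4.6 and matplotlib 3.10.9. A gene list is not reported here because an item in it is withheld for evaluation.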

Additional observations from a re-analysis of the deposited data

How the results depend on the processing

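The 21 members picked for their fold, overlap, p, level or swing kept their direction under other scalings, pseudocounts and filters (18 of them passed the filter of 10 reads). Directions turned on leaving out 1 library. Over these fits the log2 fold change ranged from -0.62 to 0.30 for Zfp106, -0.86 to 0.37 for Zfp503, -0.996 to 0.17 for Zfp365 and -1.73 to 0.13 for Zfp385c. Without specimen 6 it was 0.30 for Zfp106 and 0.37 for Zfp503, without specimen 8 it was 0.17 for Zfp365 and 0.13 for Zfp385c, and without specimen 20 it was 0.04 for Zfp503. A pseudocount of 10 moved Zfp474 to -1.003. The count of non-overlapping members, 9, ranged from 10 to 29 when 1 library was left out. It was 7 when scaled by total counts, where Zfp474 and Zik1 overlapped, 10 with median ratios, 11 with upper quartiles, 29 without specimen 10 (34.4% of all genes tested) and 14 without specimen 20 (12.3%), 13 without specimen 13 (18.9%), 11 without specimen 6 (14.4%), and 10 without specimen 8 (13.6%) or 18 (12.5%). The 5 members with an unadjusted p under 0.05 in limma (2.35% of all genes tested, both directions) became 9 in DESeq2 (5%), 3 with at least 10 reads in every library (2.3%, 36 members fitted), 3 with no filter beyond 1 read (2.86%), 1 when scaled by total counts (2.23%), and between 0 and 15 without 1 library. They were 15 without specimen 10 (15.5% of all genes), 0 without specimen 13 (1.72%), 4 without specimen 6 (1.73%), and 1 without specimen 8 (1.46%), 18 (1.15%) or 20 (1.07%). Genes with an adjusted p under 0.05 numbered 0 in every fit but that without specimen 10, which gave 1. The median of the down-regulated members lay between -0.61 and -0.31 and that of the up-regulated members between 0.26 and 0.46 without 1 library. With total counts, 38.1% of all genes were lower, against 49.8%, and 32 members stayed lower. The cause of these shifts was not tested. A library left out leaves fewer animals, so more groups are apart by construction. With 3 animals a group and 3 to 33 reads, values such as those of Zfp474 carry a large counting error. No paired analysis was possible because the groups share no specimen numbers.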

Other observations

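The other transcription factors with C2H2 fingers, from a list of 109 genes of named families (Klf, Sp, Egr, Zic, Ikzf, Zeb and others), were examined beside the members. The deposited lists name 28 of them, of which 26 were tested in limma, 15 with a lower and 11 with a higher fitted level in MSC treated animals. Their median log2 fold change was -0.26, and limma gave 0 of them an unadjusted p under 0.05, beside 2.35% of all genes tested. All sound trauma values exceeded all MSC treated values for 2 of the 26 (7.69%), beside 2.92% of all genes tested. They were under them for 0, beside 4.25% of all genes tested. The lists chose these genes too by the same contrast, so nothing is read from these counts.

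The 3 with the most negative log2 fold change are factors of neural lineages, and specimen 8 was high for each. St18, a paralogue of Myt1, had scaled counts of 78.8, 442 and 11.6 (specimens 6, 8 and 10, sound trauma) against 5.19, 34.7 and 39.8 (specimens 13, 18 and 20, MSC treated). Zic1, a factor of the dorsal neural tube and cerebellum, had 905, 4342 and 387 against 411, 481 and 398. Myt1, a factor of neural and oligodendrocyte precursors, had 115, 269 and 26.8 against 20.8, 55.2 and 71.8. Specimen 10 lay among the MSC treated values or under them for these 3 genes. The sum of the neuron markers, which come from the same list, was also highest in specimen 8. Among those with a higher level, Rest, a repressor of neuronal genes, had 243, 323 and 426 against 402, 466 and 417, a log2 fold change of 0.41 (SE 0.22). Egr2, a factor of Schwann cells and the hindbrain, had 89.2, 95.6 and 225 against 136, 193 and 337, a log2 fold change of 0.73 (SE 0.47). For both, specimens 6 and 8 were the lowest of the 6 animals. These 5 genes were chosen after their values were seen.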
